A study of Mus musculus with 6 samples.

Results

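The 7 genes described here encode receptors and ligands of the glial cell line-derived neurotrophic factor (GDNF) family, namely the co-receptors Gfra1, Gfra2, Gfra3 and Gfra4, the receptor Ret, and the ligands Gdnf and Nrtn. They were taken by gene name from a table of 21995 rows, and each had 1 row. The family was chosen by name with the FPKM differences between the groups already known, and the values so used are those of this same comparison, so the genotype differences of its members are given as values and intervals, with no p-value for a single member. RNA-seq libraries were made from mouse retinas at postnatal day 6 (P6), freed of pigment epithelium, with the retinas of 1 animal in each library. There were 3 control animals and 3 Lhx4-null animals, all of a mixed background of the strains C57BL/6J and 129S6. Null mice carried a tdTomato reporter knock-in at Lhx4 on one allele and a loxP-flanked Lhx4 on the other, which Six3-Cre deletes in the retina. The alleles of the sequenced controls are not named, and elsewhere in the study controls were wild type or carried the loxP or tdTomato allele, so whether these carried either allele or Cre is not known. The comparison asked how transcripts differ in the retina without Lhx4, a homeodomain protein with LIM domains that is made by bipolar cells.

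Ligands of this family act through a receptor in separate parts. A ligand binds a GFRα protein, which is held to the cell surface by a lipid anchor and has no kinase of its own, and the pair then engages RET, a receptor tyrosine kinase that signals through adaptor proteins to the ERK and PI3K pathways. GDNF prefers the product of Gfra1, neurturin (Nrtn) that of Gfra2, artemin (Artn) that of Gfra3 and persephin (Pspn) that of Gfra4. In the mouse retina RET is made by subsets of ganglion, amacrine and horizontal cells, and GDNF supplied from outside protects photoreceptors in rodent models of degeneration.

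Values are FPKM, fragment numbers divided by transcript length and by library size, which can be compared between genes because they are scaled to length. FPKM summed to between 386567 and 429668 per library, and between 5348 and 5818 rows were listed at 0. FPKM do not carry the number of reads behind them, so counting error is unknown and precision rests on the 3 animals of a group. Both libraries numbered 3 stood apart from the other 4: the sum of 9 progenitor and cell cycle markers was 2.58 times that of controls 1 and 2 in control 3 and 2.21 times that of nulls 1 and 2 in null 3, and the sum of 10 rod markers was 0.502 and 0.715 times as high. The targeted gene Lhx4 had values of 17.98, 18.1 and 19.3 FPKM in the controls, in the order of their numbers, and of 28.2, 28.3 and 25.8 FPKM in the nulls. It was thus higher in the null libraries, and because gene-level FPKM cannot tell the floxed part of a transcript from what remains, it does not check the labels. The term null-labelled is used for these libraries. Of 4 bipolar genes chosen after their values were seen, Bhlhe23 (0.986 to 11.5 FPKM in controls, 0.196 to 0.626 FPKM in nulls) and Grik1 (6.14 to 19.9 and 3.19 to 5.06 FPKM) were lower in every null library than in any control, whereas Grm6 and Scgn had overlapping groups. Lower levels without overlap held for 5.53% of the 13175 genes tested. Because these 4 genes were picked from the same values, they do not check the labels either.

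Among the 5 tested members Gfra1 and Nrtn had the largest differences in each direction on the log2 scale, and the sequence next to their transcript starts is shown for reference (RefSeq, GRCm38.p6, minus strand, 5′ to 3′). For Nrtn it is the 250 bases before the start, chr17:56757549-56757798, with capitals marking the GC box GGGCGG. For Gfra1 it is the 62 bases between the start of a coding transcript and an exon of another transcript, chr19:58455399-58455460, which hold none of the letters searched.
Nrtn: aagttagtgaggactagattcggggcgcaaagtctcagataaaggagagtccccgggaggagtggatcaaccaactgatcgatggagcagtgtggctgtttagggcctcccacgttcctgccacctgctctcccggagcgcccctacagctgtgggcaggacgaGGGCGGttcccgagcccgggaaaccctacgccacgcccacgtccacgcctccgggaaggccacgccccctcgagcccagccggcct
Gfra1: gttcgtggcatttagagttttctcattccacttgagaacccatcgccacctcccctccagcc
The letters TAATTA and their core TAAT, bound by many homeodomain factors, were searched on both strands of the whole 250 bases before the start, as were GGATTA, bound by OTX and CRX factors, TATAAA and GGGCGG, where TAATTA contains TAAT. The Gfra1 window held none of them and the Nrtn window held GGGCGG alone, which begins 86 bases before the start. The Gfra1 start used, at 58455398, lies inside the gene, which runs to 58455909 on the minus strand. Its window is therefore within the gene, and the bases before the outer end of Gfra1 were not searched. Of 32851 promoter windows of this length, 54.9% held TAAT, 4.84% TAATTA, 6.25% GGATTA, 12.4% TATAAA and 32.7% GGGCGG. Promoters were at hand for 4 of the 7 members, and among the 6 windows of these genes TAAT occurred only in both Gdnf windows. One of these also held TATAAA 31 bases before its start. The RefSeq starts of the Gdnf windows lie 798 and 2881 bases from the nearest start in the GENCODE annotation. These matches are descriptions of the letters and not of binding.

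Nrtn was the most abundant member, and Gdnf the least. In controls the mean level was 34.2 ± 5.49 FPKM for Nrtn, 7.54 ± 0.295 for Gfra1, 7.28 ± 1.77 for Gfra4, 7.13 ± 1.03 for Ret, 3.42 ± 0.550 for Gfra2, 0.139 ± 0.0358 for Gfra3 and 0.0460 ± 0.0191 for Gdnf (SD, n = 3 each). The ranges of Gfra1, Gfra4 and Ret overlapped among controls, so their order there is not set, while each other step in the order was larger than the spread between animals. In null-labelled libraries Gfra1, at 12.1 ± 0.289 FPKM, lay above every value of Ret (8.34 ± 0.950 FPKM) and Gfra4 (7.13 ± 0.277 FPKM), whose ranges overlapped. By their mean over all 6 libraries Nrtn ranked 2700, Gfra1 7191, Ret 8017, Gfra4 8244 and Gfra2 10105 of 21995 rows, whereas Gfra3 and Gdnf ranked 14313 and 15879.

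**Figure D1:**
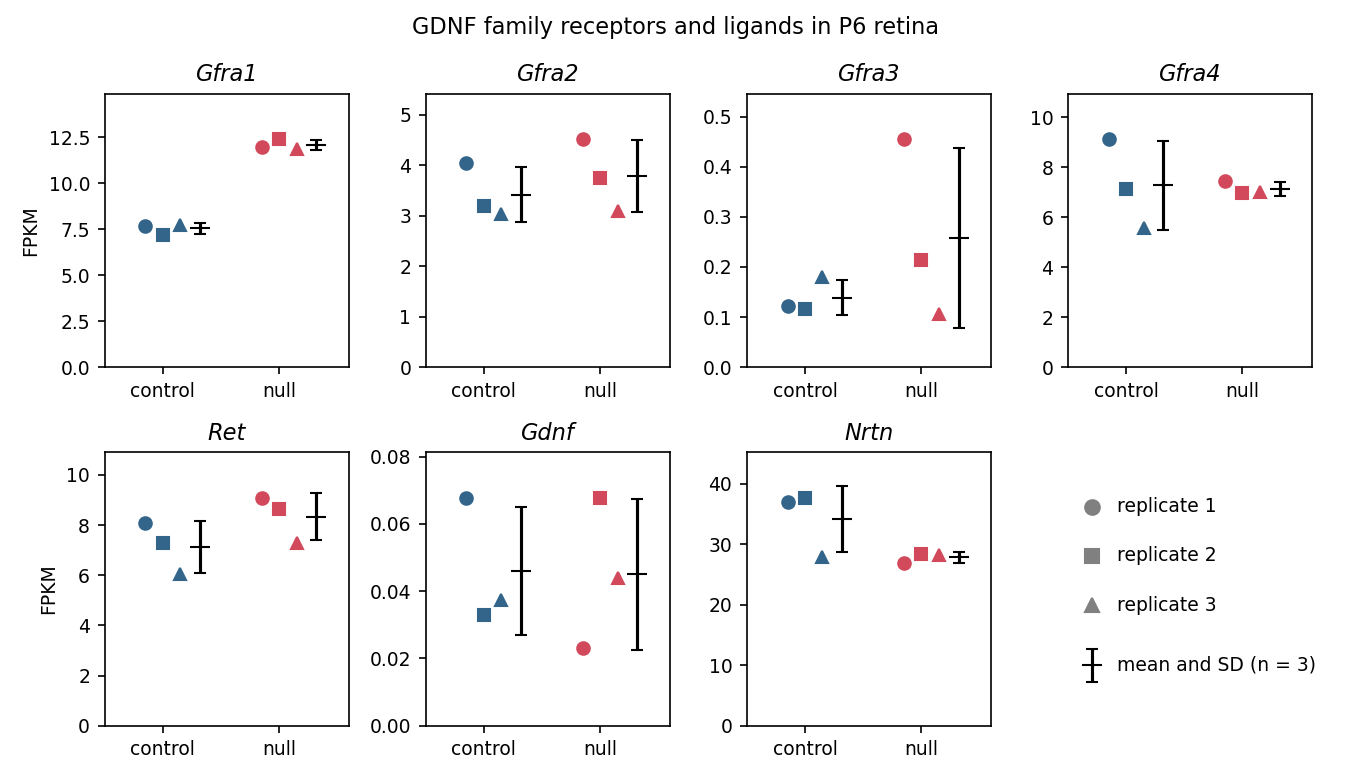
Expression of each member in FPKM (vertical axes, from 0) in 3 control (blue) and 3 null-labelled (red) P6 retinas. Symbols mark the replicate number and black bars the mean and SD; only for Gfra1 do the groups not overlap, at 7.20 to 7.75 against 11.8 to 12.4 FPKM.

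Gfra1, the preferred co-receptor of GDNF, was higher in every null-labelled retina. Listed by replicate number, its values were 7.66, 7.20 and 7.75 FPKM among controls and 11.9, 12.4 and 11.8 FPKM among null-labelled libraries. The groups did not overlap, the lowest null-labelled library was 1.53 times the highest control, and the coefficient of variation was 3.92% among controls and 2.40% among null-labelled libraries. The null mean exceeded the control mean by 4.52 FPKM, a log2 difference of 0.64 (SE 0.0907, 95% interval 0.43 to 0.86, limma on log2(FPKM + 0.5), n = 3 each). It was 0.61, 0.74 and 0.58 in the pairs numbered 1, 2 and 3, and 0.68 without both libraries numbered 3. Pairs here and below are by replicate number alone, and the labels do not say that such animals were paired. Gfra1 differed little between the libraries numbered 3 and the rest: control 3 was 1.04 times the mean of the other controls and null 3 was 0.973 times that of the other nulls. Gfra1 lies on chromosome 19 (58235604 to 58455909, GRCm38, minus strand, protein coding, 9 annotated transcripts), and its end overlaps the antisense gene Gm16277, whose reads cannot be told apart without strand.

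Gfra2, Gfra3 and Gfra4 had overlapping groups. Gfra2 (chromosome 14, 70890120 to 70979838, plus strand), the preferred co-receptor of neurturin, was 4.05, 3.19 and 3.03 FPKM in controls and 4.52, 3.75 and 3.10 FPKM in null-labelled libraries. Each null-labelled library lay slightly above the control of the same number, by 0.14, 0.20 and 0.028 on the log2 scale, and the difference over all libraries was 0.12 (SE 0.170, 95% interval -0.27 to 0.52) but 0.0041 without null 1. Gfra4 (chromosome 2, 131039632 to 131043088, minus strand), the preferred co-receptor of persephin, was 9.12, 7.13 and 5.58 FPKM in controls and 7.45, 6.96 and 6.99 FPKM in null-labelled libraries. Its control values enclosed all 3 null-labelled values, and its difference was -0.0021 (SE 0.169, 95% interval -0.40 to 0.39) with either sign in single pairs and a positive sign after scaling libraries to the same 75th percentile or total. The microRNA gene Mir6973b lies within Gfra4 on the same strand. Gfra3 (chromosome 18, 34689898 to 34720387, minus strand), the preferred co-receptor of artemin, was 0.121, 0.116 and 0.180 FPKM in controls and 0.455, 0.214 and 0.105 FPKM in null-labelled libraries. Null 3 was thus the lowest and null 1 the highest of the 6, and at this level Gfra3 lay under the minimum of 0.5 FPKM on the mean and was not tested.

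The makeup of the co-receptor transcripts shifted with Gfra1. The 4 Gfra genes summed to 20.95, 17.6 and 16.5 FPKM in the controls and to 24.4, 23.3 and 22.04 FPKM in the null-labelled libraries. Gfra1 held 36.6%, 40.8% and 46.9% of that sum in controls and 49.0%, 53.2% and 53.7% in null-labelled libraries. Gfra4 held 33.7% to 43.5% in controls and 29.9% to 31.7% in null-labelled libraries, Gfra2 18.1% to 19.3% and 14.0% to 18.5%, and Gfra3 no more than 1.87% in any library. These shares carry the same measurements as Gfra1 alone and are no further evidence of its difference. Relative to Ret, Gfra1 was 0.948, 0.990 and 1.28 times as abundant in controls and 1.31, 1.43 and 1.63 times in null-labelled libraries. The highest control ratio and the lowest null ratio were therefore close to each other, in control 3 and null 1.

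**Figure D2:**
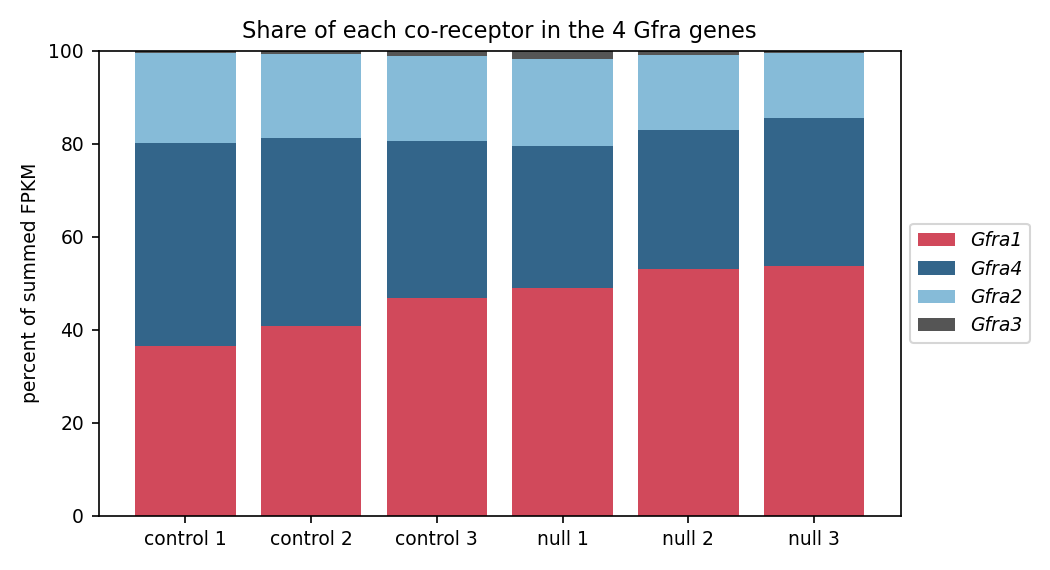
Share of each co-receptor gene in the summed FPKM of Gfra1, Gfra2, Gfra3 and Gfra4 (vertical axis, percent) in each of the 6 libraries. Gfra1 (bottom segment) runs from 36.6% to 46.9% in controls and from 49.0% to 53.7% in null-labelled libraries.

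Ret was slightly higher in each null-labelled library than in its same-numbered control, with overlapping groups. Ret (chromosome 6, 118151745 to 118197718, minus strand), the kinase shared by all ligands of the family, was 8.08, 7.27 and 6.03 FPKM in controls and 9.09, 8.65 and 7.27 FPKM in null-labelled libraries. The pairs differed by 0.16, 0.23 and 0.25 on the log2 scale and the groups by 0.22 (SE 0.141, 95% interval -0.11 to 0.55), or by 0.11 without control 3. Such an order in all 3 pairs was shared by 18.4% of all tested genes, and the labels do not say that same-numbered animals were paired. The libraries numbered 3 were lowest in both groups, at 0.785 and 0.820 times the mean of the others. Gfra2 shared this order, at 0.837 and 0.749 times. They were 2 of the 5 tested members with both number 3 libraries at the bottom of their groups, a pattern of 25.2% of all tested genes, and no member had both at the top, as 25.9% of genes did.

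Of the ligands, Nrtn had a lower mean in null-labelled retinas with overlapping groups, and Gdnf was near 0 throughout. Nrtn (chromosome 17, 56751325 to 56757530, minus strand) had values of 36.9, 37.7 and 27.8 FPKM among controls and 26.8, 28.4 and 28.3 FPKM among null-labelled libraries, again by number. Controls 1 and 2 lay above all null-labelled values, but control 3 lay among them and only null 1 was below every control. The log2 difference was -0.28 (SE 0.127, 95% interval -0.57 to 0.017). It was -0.45 and -0.40 in the pairs numbered 1 and 2 but 0.022 in the pair numbered 3, and it was -0.42 without control 3 and -0.43 without both libraries numbered 3. Gdnf (chromosome 15, 7810846 to 7837575, plus strand) was 0.0678, 0.0328 and 0.0372 FPKM in controls and 0.0231, 0.0678 and 0.0440 FPKM in null-labelled libraries and was not tested. As a ratio of levels, Nrtn was 4.82, 5.24 and 3.59 times Gfra1 in controls and 2.24, 2.29 and 2.39 times Gfra1 in null-labelled libraries. This ratio joins the tested members with the largest differences in opposite directions, and Gfra1 alone already separates the groups, so it adds no evidence.

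Of the 5 tested members none passed at a Benjamini-Hochberg adjusted p under 0.05 over 13175 genes (limma, two-sided), where 0.0152% of genes did. With the replicate number as a block none passed either, against 0.0911% of genes. The count at an unadjusted p under 0.05 was 1 of the 5, beside 6.81% of genes (4.09% higher and 2.72% lower in null-labelled libraries), and 2 of the 5 with the block, beside 12.2% of genes. Gfra1 was also the only member without overlap of the groups, which held for 13.4% of genes (7.88% higher and 5.53% lower). The tested members had a median log2 difference of 0.12, which with 1 library left out ran from 0.0041 (without null 1) to 0.24 (without null 3), and all tested genes one of 0.0033. Nothing is read from these counts, since the members were chosen with this comparison known.

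**Figure D3:**
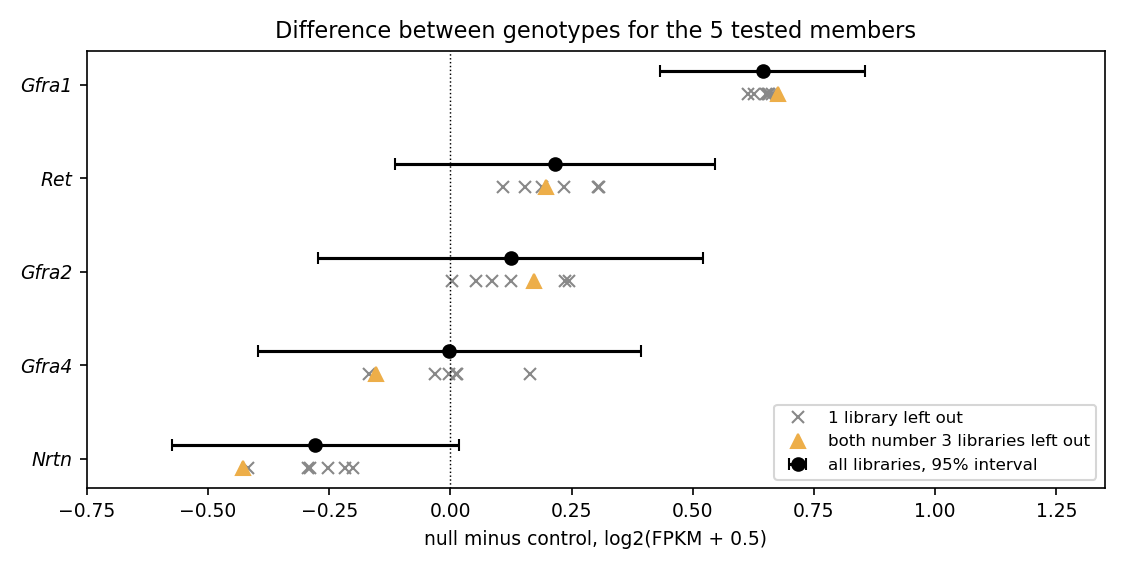
Null minus control difference on the log2(FPKM + 0.5) scale (horizontal axis) for the 5 tested members, with the 95% interval over all 6 libraries (black), the values with 1 library left out (crosses) and those without both libraries numbered 3 (triangles). Gfra1 stays between 0.61 and 0.68 throughout, Nrtn runs from -0.43 to -0.20, and Gfra4 lies on both sides of 0.

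Of all tested genes with a usual gene symbol, Lhx4 had the profile closest to that of Gfra1. Likeness was measured as the root mean square difference of log2 values centred on each gene's mean over the 6 libraries. It was 0.0618 for Lhx4, 0.0803 for Slc35a5, which encodes a member of a nucleotide sugar transporter family, and 0.0817 for Tenm1, which encodes a teneurin adhesion protein. Slc35a5 was 8.39 to 10.6 FPKM in controls and 14.8 to 15.6 FPKM in null-labelled libraries, and Tenm1 1.36 to 1.40 and 2.12 to 2.46 FPKM. All of these were higher in every null-labelled library, as were 7.88% of all tested genes. They were picked for likeness to Gfra1, which separates the groups, so their separation is no further evidence. Genes were to be matched only to members that ranged over at least 1 on the log2 scale, and Gfra1 ranged over 0.74, so these names were chosen after the values were seen. The other tested members, which did not reach that range either, had nearer neighbours: the closest gene was at 0.0162 for Gfra2 (Mmp17), 0.0207 for Gfra4 (Plekhh1), 0.0239 for Ret (Gpr26) and 0.0377 for Nrtn (Xrcc6).

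**Figure D4:**
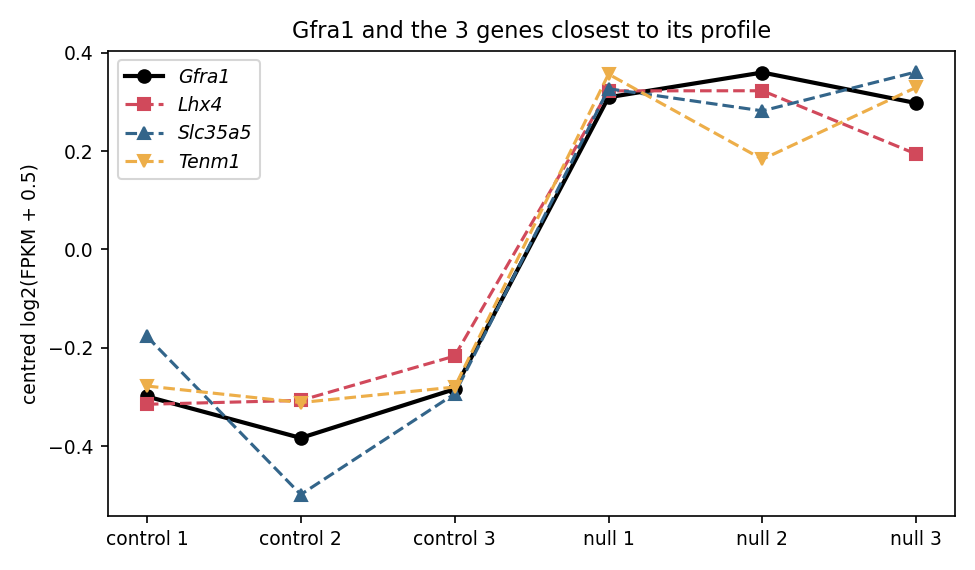
Centred log2(FPKM + 0.5) (vertical axis) of Gfra1 and of the 3 genes closest to it in each of the 6 libraries (horizontal axis); lines only join points of a gene. All 4 genes are below their mean in the controls and above it in the null-labelled libraries, as genes picked for likeness to Gfra1 would be.

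Markers of the cell classes of the retina were set beside the members. Of 84 tested marker genes, 10 had no overlap between groups (9 higher and 1 lower in null-labelled libraries), or 11.9%, which is near the 13.4% of all tested genes. In whole retinas fewer cells of a type and less RNA per cell cannot be told apart. Of 13 marker lists, summed FPKM did not overlap between groups for 4. The share over like sums of other genes was not computed, so nothing is read from this count. The sum of 9 bipolar markers was 620 to 687 FPKM in controls and 536 to 615 in null-labelled libraries, with none of the 9 free of overlap alone. Its closest values were 619.7 FPKM in control 3 and 615.0 FPKM in null 1. The sum of 4 horizontal cell markers was 7.76 to 11.1 and 12.1 to 12.6 FPKM, with Onecut1 and Onecut2 higher without overlap. The sum of 4 astrocyte markers was 13.3 to 16.3 and 17.5 to 20.4 FPKM, with Pdgfra alone higher without overlap, and that of 8 endothelial markers 63.0 to 69.9 and 74.1 to 86.8 FPKM, with Kdr alone. The other markers without overlap were Slc17a6, Cx3cr1, Csf1r, Opn1sw and Cnga3, all higher, and Arr3, which was lower, in lists whose sums overlapped. The sums of 7 amacrine and 7 ganglion cell markers overlapped, at 177 to 211 and 197 to 218 FPKM and at 201 to 247 and 231 to 242 FPKM. The libraries numbered 3 were the lowest of both groups in the sums for rods, bipolar, horizontal and ganglion cells and pericytes. For horizontal and ganglion cells null 3 was only slightly lower, at 0.970 and 0.974 times the mean of the other nulls. They were the highest of both groups in the sums for cones, Müller glia, progenitors and cell cycle, microglia and pigment epithelium, and neither in the remaining 3 lists. No marker was listed at 0 in all libraries. The part of these classes in the values of Gfra1 and Nrtn was not tested.

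The remaining ligands and receptors of the wider family were barely detected. Artn was 0.179, 0.194 and 0.324 FPKM in controls and 0.361, 0.166 and 0.635 FPKM in null-labelled libraries. Pspn ranged from 0.167 to 0.654 FPKM in controls, was listed at 0 in nulls 1 and 3 and was 1.05 FPKM in null 2. Gdf15, a distant member of the superfamily that signals through GFRAL and RET, ranged from 0.362 to 0.751 FPKM in controls and from 0.103 to 0.458 FPKM in null-labelled libraries, and Gfral was listed at 0 in all 6. All 4 had overlapping groups or only zeros and lay under the filter on low values.

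Other receptors, adaptors and response genes of the pathway were measured in lists with 45 genes including these 4, of which 40 were tested. None passed (limma, two-sided, adjusted over all genes, with or without the block), 1 had an unadjusted p under 0.05, beside 6.81% of all tested genes, and 5 did with the block, beside 12.2%, so that both counts were close to or below the share over all genes. Of the 6 co-receptors and RET modifiers, 4 were higher and 2 lower, with a median log2 difference of 0.061, beside 0.0033 over all tested genes. Sorl1, a sorting receptor that binds GDNF and its co-receptor, was 2.96, 2.93 and 1.95 FPKM in controls and 3.99, 3.94 and 2.92 FPKM in null-labelled libraries (log2 0.41, SE 0.189, limma, BH-adjusted p = 0.725, 0.325 to 1.00 over 17 alternatives), and differed by 0.24 without control 3. The cell adhesion molecule Ncam1, an alternative receptor for GDNF, was chosen after its values were seen and lay at 55.3 to 68.2 and 52.8 to 67.0 FPKM. Ptprf, Sdc3 and Lrig1 differed by 0.14 (SE 0.0967), 0.11 (SE 0.0986) and -0.074 (SE 0.170), with BH-adjusted p of 0.802, 0.830 and 0.952 (limma). Ptprf differed by 0.22 without control 1 and 0.089 without control 2, and Sdc3 by 0.057 without control 2, 0.063 without null 3 and 0.18 without null 2.

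Adaptors that bind RET or act just downstream were higher for 15 and lower for 5 of the 20 tested. Their median log2 difference was 0.10, beside 0.0033 over all tested genes. Groups did not overlap for 4 of them, Dok6, Shc3, Cbl and Ptpn11, all higher, against 7.88% of all tested genes with no overlap and higher levels. For Ptpn11 the highest control was 24.70 FPKM and the lowest null-labelled library 24.73 FPKM. None of the 20 had an unadjusted p under 0.05 in the fit without the block (limma, two-sided), beside 6.81% of all tested genes. Dok6, a docking protein that binds RET, was 2.22, 2.29 and 0.545 FPKM in controls and 3.67, 2.59 and 2.93 FPKM in null-labelled libraries (log2 0.83, SE 0.374, limma, BH-adjusted p = 0.725, 0.342 to 1.00 over 17 alternatives). Control 3 was far below the other libraries, and without it the difference of Dok6 was 0.36. Shc3, a neuronal SHC adaptor, was likewise lowest in control 3, at 0.848 FPKM against 1.95 to 2.93 FPKM elsewhere (log2 0.52, SE 0.266, limma, BH-adjusted p = 0.749), and differed by 0.22 without that library. Cbl, a ubiquitin ligase that acts on activated receptors, was 5.62 to 6.38 FPKM in controls and 6.63 to 8.63 FPKM in null-labelled libraries (log2 0.26, SE 0.131, limma, BH-adjusted p = 0.749), and differed by 0.15 without null 1. Src was 29.3 ± 4.07 and 36.0 ± 6.02 FPKM (SD, n = 3 each; log2 0.29, or 0.17 without null 3, limma, BH-adjusted p = 0.749), and Ptpn11, a phosphatase of the RAS pathway chosen after its values were seen, 21.9 to 24.7 and 24.7 to 27.4 FPKM (log2 0.13, limma, BH-adjusted p = 0.787).

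Genes that respond to ERK signalling pointed both ways, with 9 of 14 higher. Their median log2 difference was 0.054, beside 0.0033 over all tested genes. Egr1, an immediate early transcription factor, was 6.69, 9.59 and 4.69 FPKM in controls and 4.24, 5.25 and 2.57 FPKM in null-labelled libraries. It was lower in each same-numbered pair, with overlapping groups (log2 -0.72, SE 0.299, limma, BH-adjusted p = 0.716). The share of all tested genes lower in every such pair was not computed, so nothing is read from that order. The adjusted p of Egr1 ran from 0.1003, which the blocked fit gave, to 1.00 over 17 alternatives (limma), and its difference was -0.47 without null 3. Fos and Phlda1 differed by -0.32 (SE 0.178) and -0.29 (SE 0.173), with BH-adjusted p of 0.749 and 0.764 (limma), and by -0.19 without null 3 and -0.17 without null 1, respectively. The feedback inhibitor Spry4 was 0.983, 1.16 and 1.21 FPKM in controls and 1.62, 1.57 and 1.39 FPKM in null-labelled libraries (log2 0.33, SE 0.148, limma, BH-adjusted p = 0.725). Spry4 and the ETS factor Etv1 were the 2 of 14 without overlap, both higher, beside 7.88% of all tested genes, and Etv1, at 2.33 to 3.45 and 3.55 to 3.85 FPKM, was chosen after its values were seen. For 8 of the 14 genes the library numbered 3 was the highest of its group in both groups, beside 25.9% of all tested genes, and without control 3 the median of the list was 0.20.

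**Figure D5:**
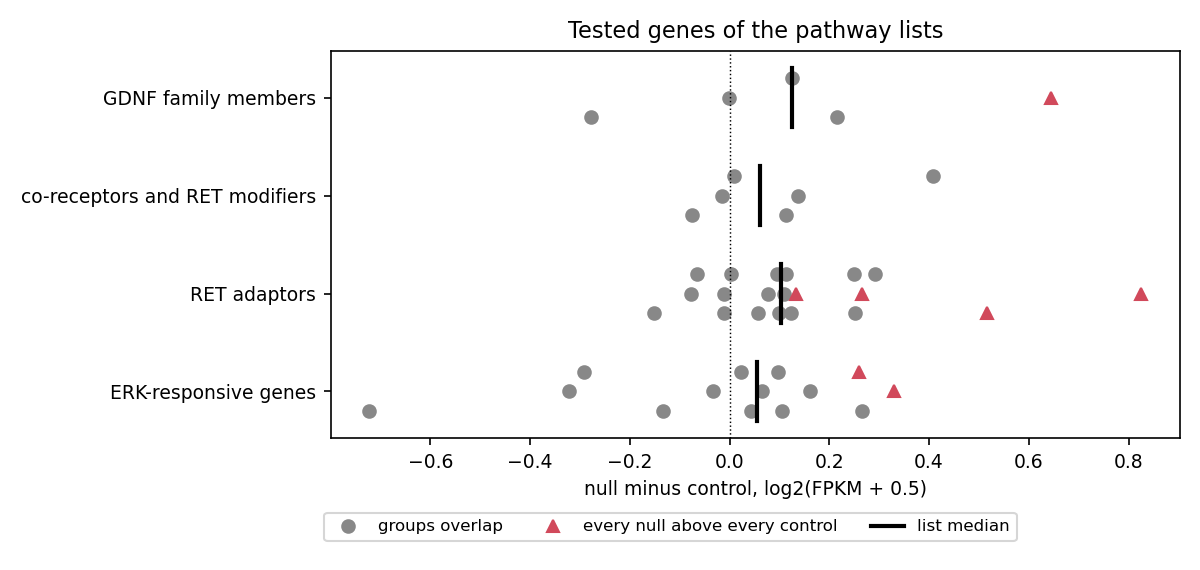
Null minus control difference on the log2(FPKM + 0.5) scale (horizontal axis) of each tested gene in 4 lists (rows). Triangles mark genes with every null-labelled library above every control, and black lines the list medians, which are 0.12, 0.061, 0.10 and 0.054 from top to bottom.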

How the data were processed

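The authors mapped reads with TopHat2 and estimated abundance with Cufflinks on GRCm38, per the submitters' processing notes, and deposited FPKM per gene for 6 libraries; tool versions, annotation and strand use were not given in the sources used here. Cufflinks divides fragments among overlapping transcripts, so overlapping genes are uncertain. Gene rows were fitted with limma 3.58.1 in R 4.3.3 on log2(FPKM + 0.5) with genotype as the only term and a trend in the variance, over 13175 rows whose mean reached 0.5 FPKM, and p-values were adjusted by Benjamini-Hochberg over all of them. The pseudocount shrinks differences of low genes. Of the rows, 168 shared 76 names, where the highest mean kept the name, and 27 had a date in place of a name. The fit was also run on simulated data with 200 genes changed. The simulated spread was independent between libraries, unlike that of these libraries, so that run does not show how the fit performs here.

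The members and lists were chosen with earlier results of these data known. Pathway genes were named where they passed, or else as the 4 with the smallest p in a list. Positions are from GENCODE M21 and promoters from RefSeq. Labels number both groups 1 to 3 and do not say that animals of the same number were paired. After removal of group means, same-numbered libraries correlated at 0.394, 0.260 and 0.675, each above 0.1, so the numbers were taken as pairs in the blocked alternative. Numbers 1 and 2 were not told apart by this check (0.377 between control 1 and null 2, 0.269 between control 2 and null 1). With group means removed, the likeness of the libraries numbered 3 raises the correlations among numbers 1 and 2 on average. The check therefore cannot show that animals were paired. The 17 alternatives changed the pseudocount (0.1 or 1), the filter (none, or a mean of 2 FPKM), the scaling (equal 75th percentiles, equal totals or quantiles), the variance model (without trend, or with array weights), the block, or the libraries used.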

Additional observations from a re-analysis of the deposited data

How the results depend on the processing

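Over 17 alternatives none of the tested members passed (limma, BH-adjusted), and neither did a gene of the pathway lists. Of 18 single genes examined, 16 kept their direction and their side of the threshold, Gfra1 between 0.61 and 0.68 on the log2 scale, Ret between 0.11 and 0.31, Gfra2 between 0.0041 and 0.24 and Nrtn between -0.43 and -0.20. Gfra4 turned positive after scaling to the same 75th percentile (0.0055) or total (0.036) and ran from -0.17 to 0.16 with a library left out. Lrig1 turned positive without both libraries numbered 3 (0.046) and ran from -0.16 to 0.039 with a library left out. The count of all genes that passed was 2 in the fit reported, 12 with the replicate block and 11 without both libraries numbered 3. It ran from 0 to 5 with a library left out, with 0 without null 2 (825 genes at an unadjusted p under 0.05), 1 without control 2 and 5 without control 3. The block changed no call of a member or a pathway gene. With a library left out the median of the co-receptor and modifier list ran from 0.026 to 0.14, that of the adaptor list from 0.064 (without control 1) to 0.14 and that of the ERK-responsive list from -0.086 to 0.20. The causes were not tested. The depth behind each FPKM is unknown, so the counting error of the low values of Gdnf, Gfra3, Artn and Pspn was not assessed, and their order rests on the spread between animals alone.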
